A study of Mus musculus with 4 samples.

Results

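LISC-only regions in gene deserts are stretches of open chromatin that were called in both libraries of large-intestinal stem cells (LISC), in neither library of small-intestinal stem cells (SISC), and far from every protein-coding gene. They were chosen by measured values, namely presence or absence in the peak lists. Overlapping peaks (1 bp or more) of the 4 deposited lists were joined, and a region was kept when its midpoint lay outside every protein-coding gene and over 100 kb from the nearest end of such a gene on chromosomes 1 to 19. The rule found 1646 such regions among 117196 on these chromosomes. They were 13.8% of the 11919 LISC-only regions and 21.2% of the 7762 desert regions, beside 10.2% of all regions that were LISC-only and 9.51% of desert regions that were SISC-only. These shares follow from the rule and carry no test.

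ATAC-seq, in which Tn5 transposase cuts accessible DNA, was done on 2 libraries per group. LISC were Lgr5-EGFP+ cells sorted from crypts of the whole large intestine, and SISC were Lgr5-EGFP+/CD24- cells from stretches of small intestine next to the pylorus and to the cecum. Mice of both groups carried Lgr5-EGFP-IRES-creERT2, which places the reporter under the Lgr5 locus, were 6 to 12 weeks old and received no treatment. The CD24 gate is named for SISC alone, and the labels do not say whether libraries came from separate animals or from pools, so the spread between libraries may be partly technical.

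The lists held 91313 and 88739 peaks for LISC replicates 1 and 2, and 83443 and 93220 for SISC replicates 1 and 2. Read depth is unknown, and absence from a list means only that no peak was called. Gene ends of 8 epithelial and stem cell markers, Lgr5 and Epcam among them, carried a peak at 8 and 7 genes in LISC and at 8 and 8 in SISC. Those of the 4 immune markers carried none in any library, while of 4 endothelial, stromal and muscle markers 3 and 2 did in LISC and 2 and 3 in SISC, and of 3 nerve and glial markers 3 and 2 did in LISC and 3 and 3 in SISC. Of 5 large-intestinal markers, 5 and 5 carried a peak in LISC and 4 and 4 in SISC, and of 3 small-intestinal markers 0 and 0 did in LISC and 2 and 2 in SISC. The part of other cells in the results was not tested. Peaks on the Y chromosome numbered 8 and 0 in LISC replicates 1 and 2 and 6 and 0 in SISC replicates 1 and 2, and that chromosome was not used. In bulk libraries a region open in a few cells and one weakly open in many cannot be told apart.

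Gene deserts are long intergenic stretches, and many flank genes for developmental transcription factors and cell surface molecules. Open chromatin there often marks distal enhancers, which act on a gene across large distances by looping of the DNA. The target of an enhancer need not be the nearest gene, so genes below are named for position alone. Intestinal identity along the gut is known to rest on distal enhancers bound by factors such as Cdx2 and Hnf4a.

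Sequence was at hand for desert regions that overlap the start of an annotated long non-coding RNA (lncRNA). Of the 1646 regions, 20 overlapped 21 such windows of 300 bases, all of lncRNA genes (RefSeq, GRCm38.p6, 250 bases before to 50 after the start). In 8 of these windows the summit of the peak fell inside the window in both LISC libraries, and the 4 of them with the highest rank in the LISC lists are shown, so that the letters under a summit can be read. Capitals mark matches on either strand to any of 8 motifs that were searched. The letters of these were TGANTCA for the AP-1 factors, TTTATNG for the Cdx homeobox factors and TGTTTAC for the forkhead factors. The Gata factors were searched by AGATAA, the nuclear receptor Hnf4 by AAAGTCC and the Krüppel-like factors (Klf) by GGGNGTG. The Runx factors were searched by TGTGGTT and the Wnt effectors of the Tcf/Lef family by CTTTGAT.
1700011C11Rik (chr7:71960925-71961224, + strand): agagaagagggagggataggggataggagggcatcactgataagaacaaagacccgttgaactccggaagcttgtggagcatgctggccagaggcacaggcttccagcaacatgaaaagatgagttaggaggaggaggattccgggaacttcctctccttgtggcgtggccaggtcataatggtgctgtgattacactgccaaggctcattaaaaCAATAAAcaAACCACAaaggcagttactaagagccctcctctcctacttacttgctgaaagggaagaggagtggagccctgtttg
Gm30063 (chr3:39460530-39460829, + strand): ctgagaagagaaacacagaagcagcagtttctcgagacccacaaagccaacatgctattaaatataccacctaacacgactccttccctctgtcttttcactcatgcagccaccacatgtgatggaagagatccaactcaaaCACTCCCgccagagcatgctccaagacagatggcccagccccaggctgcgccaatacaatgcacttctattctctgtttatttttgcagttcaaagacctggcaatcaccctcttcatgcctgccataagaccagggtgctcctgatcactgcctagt
Gm30235 (chr3:52649639-52649938, + strand): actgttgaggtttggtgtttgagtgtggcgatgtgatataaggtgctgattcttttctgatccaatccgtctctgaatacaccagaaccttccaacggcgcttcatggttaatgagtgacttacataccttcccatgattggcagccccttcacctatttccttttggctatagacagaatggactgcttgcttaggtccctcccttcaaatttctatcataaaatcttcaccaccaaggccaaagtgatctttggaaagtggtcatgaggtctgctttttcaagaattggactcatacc
Gm31753 (chr1:193478553-193478852, + strand): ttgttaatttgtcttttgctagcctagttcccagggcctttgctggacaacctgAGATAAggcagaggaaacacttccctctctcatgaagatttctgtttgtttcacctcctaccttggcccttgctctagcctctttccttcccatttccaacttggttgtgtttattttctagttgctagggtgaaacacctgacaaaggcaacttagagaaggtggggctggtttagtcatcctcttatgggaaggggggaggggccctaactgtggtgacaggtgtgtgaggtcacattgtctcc

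The first window lies at 1700011C11Rik, in the gap before Mctp2. The peak there, at 71960589 to 71961423, reached a −log10 q (strength of the peak call over background) of 106 in LISC replicate 1 and 85.0 in LISC replicate 2, with summits at bases 112 and 105 of the window. A Cdx match begins at base 216 and a Runx match at base 225, both as the reverse complement, so neither lies under the summit. At Gm30063, between the gap genes Fat4 and Intu, the region reached a −log10 q of 90.2 and 88.5, with a Klf match at base 143 and summits at bases 211 and 182. Gm30235 held none of the 8 motifs, with a −log10 q of 60.2 and 65.6 in LISC replicates 1 and 2. Gm31753, between Camk1g and Plxna2, had 1 Gata match and a −log10 q of 47.0 and 14.5, the widest difference between libraries among the 4.

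Over the 21 windows, a Gata match was found in 4 (19.05%), against 17.997% of 2017 desert windows and 11.2% of 31396 windows of all genes. The Gata share was thus close to that of desert windows, the nearer base. Klf matches were in 2 (9.52%), against 18.05% of the desert windows and 29.0% of all windows. Cdx matches were in 2 (9.52%), against 17.8% of the desert windows and 10.9% of all windows. AP-1 and Runx matches were also in 2 windows each, forkhead and Tcf/Lef matches in 1 each, and Hnf4 matches in 0. Shares of all windows and of desert windows were 7.84% and 10.4% for AP-1 and 5.32% and 6.35% for Runx. For forkhead they were 3.71% and 4.76%, for Tcf/Lef 3.76% and 6.49%, and for Hnf4 4.22% and 4.61%. A match is letters in a window and not a bound site, and with 21 windows these shares are close to single counts. A window needs only to overlap a member, so a match need not lie in the open sequence. The Gata window at Gm40748 touches its region only at the edge, and it shares bases with the window at Gm33782, counted separately.

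Each library was first taken by itself, since its list gives a desert share without reference to the other lists. The peaks of members are among those counted, at the same 100 kb bound, so this share is not independent of the rule. Peaks in gene deserts made up 6.25% and 6.57% of autosomal peaks in LISC replicates 1 and 2, and 5.14% and 5.23% in SISC replicates 1 and 2. The groups did not overlap. The mean was 6.41% ± 0.223 in LISC and 5.18% ± 0.0634 in SISC (SD, n = 2 each), a difference of 1.23 percentage points. With 2 libraries against 2, a two-sided exact permutation test gave p = 0.333, the smallest that this design allows, so the difference cannot reach 0.05. Over 500 kb from a gene end lay 0.530% and 0.522% of LISC peaks, against 0.317% and 0.292% of SISC peaks, again without overlap. With each list held to its 20000 strongest peaks, the desert shares were 3.36% and 3.99% in LISC and 2.715% and 2.575% in SISC.

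**Figure D1:**
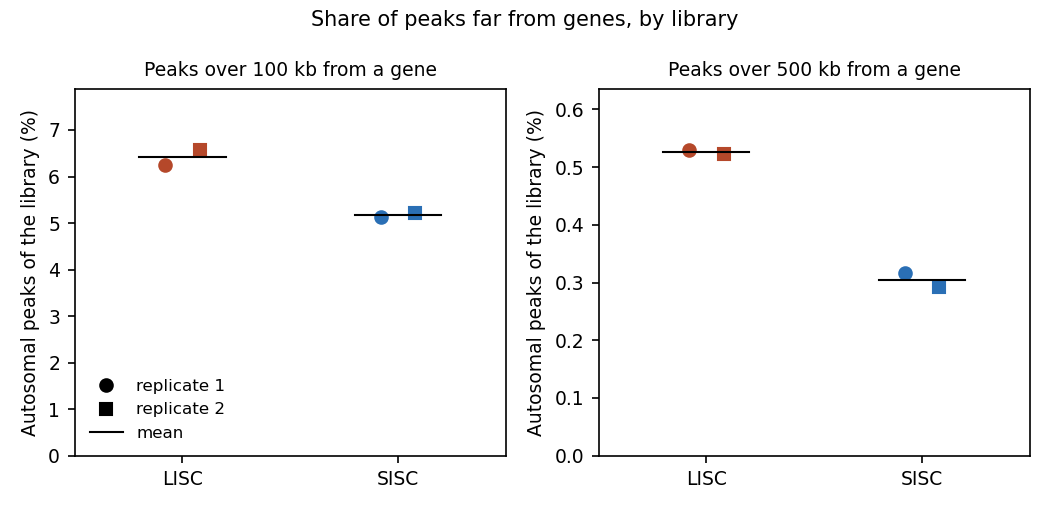
Share of each library's autosomal peaks (y axis, percent) that lie outside protein-coding genes and over 100 kb (left) or over 500 kb (right) from a gene end, with the mean of each group as a line (n = 2 libraries each). LISC libraries stand at 6.25% and 6.57% and SISC libraries at 5.14% and 5.23% on the left.

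The share of LISC-only regions was larger in each wider class of distance from genes. Within 1 kb of a gene end, 3.39% of intergenic regions were LISC-only and 4.87% were SISC-only. Between 10 and 50 kb the shares were 10.1% and 8.88%. Between 100 and 200 kb they were 17.3% and 9.95%, and between 200 and 500 kb 23.97% and 8.80%. Between 500 and 1000 kb they were 34.1% and 10.3%, and beyond 1000 kb, where 114 regions lay, 35.1% and 7.02%. The SISC-only share thus stayed between 4.87% and 10.3% over all classes of distance.

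Put as a ratio, group-only regions beyond 1000 kb were 40 LISC-only and 8 SISC-only, so that 83.3% were LISC-only (exact 95% interval 69.8 to 92.5). Within 1 kb they were 149 and 214, or 41.0% (35.9 to 46.3). Inside gene bodies they were 6472 and 5011, or 56.4% (55.4 to 57.3). The intervals cover counting error over regions, which are not replicates. Leaving out 1 library at a time, the counts beyond 500 kb ranged from 231 to 303 for LISC-only and from 72 to 91 for SISC-only, beside 222 and 63 with all libraries. Each library left out removes a condition of the rule, so these counts could hardly fall and do not measure spread between libraries. Among desert regions as a whole, 1646 were LISC-only and 738 SISC-only, a ratio of 2.23, against 10273 and 8599, a ratio of 1.19, elsewhere. Without SISC replicate 1 the desert ratio was 1.31, from 1747 and 1331 regions, against 0.601 elsewhere, and with each list held to its 41721 strongest peaks it was 2.37, from 655 and 276.

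**Figure D2:**
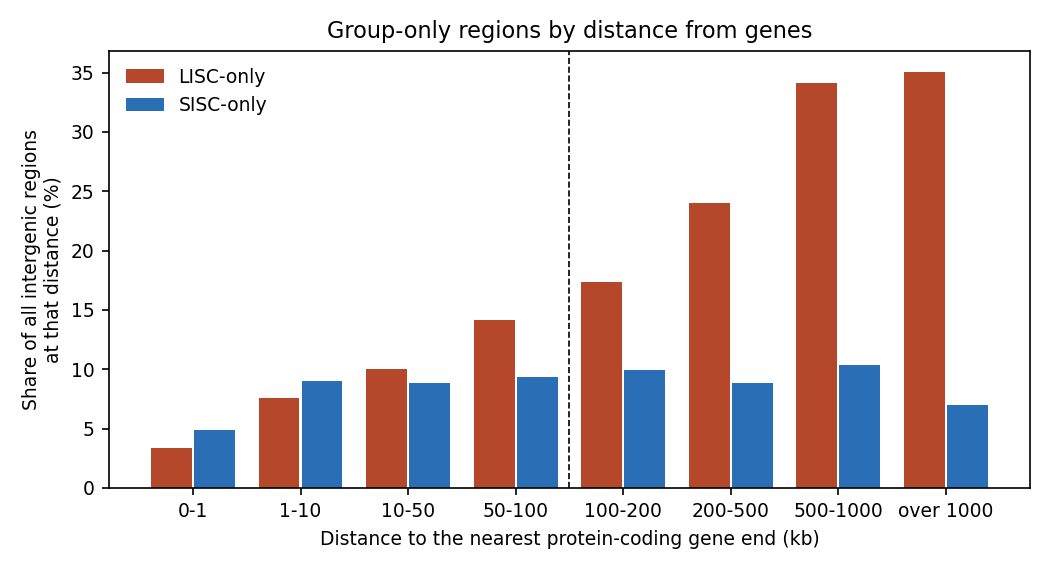
Share of all intergenic regions (y axis, percent) that were LISC-only or SISC-only, by distance of the region's midpoint from the nearest protein-coding gene end (x axis, kb), with the dashed line at the 100 kb bound of a desert. LISC-only bars go up from 3.39% to 35.1%, while SISC-only bars stay at or below 10.3%.

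Desert regions called in both LISC libraries numbered 4620. Of these 1646 were called in neither SISC library and 2592 in both. A further 281 were called in SISC replicate 2 but not replicate 1, and 101 in SISC replicate 1 but not replicate 2. The median distance of the LISC-only desert regions from a gene end was 222 kb, with a range of 100 to 2031 kb, and that of SISC-only desert regions was 183 kb. The farthest region (chromosome 18, 28234616 to 28235378) lay 2031 kb from Pik3c3, a lipid kinase gene of vesicle traffic, with a −log10 q of 171 in LISC replicate 1 and 89.9 in LISC replicate 2. Just past the 100 kb bound, 5 regions at 100.1 to 100.5 kb had a −log10 q of 7.79 to 42.1 in LISC replicate 1 and 3.65 to 60.6 in LISC replicate 2. The 5 LISC-only regions just short of it, at 99.5 to 99.8 kb, had 7.79 to 31.1 and 6.94 to 33.7.

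Most of the regions ranked in the lower part of the lists that chose them. Their −log10 q had a median of 20.3 in LISC replicate 1 (range 2.82 to 336) and of 17.2 in LISC replicate 2 (range 2.58 to 217), and the authors' fold enrichment a median of 5.23 and 4.25. Ranked within its own list by −log10 q, the median member stood at percentile 34.9 in replicate 1 and 37.5 in replicate 2. LISC-only regions outside deserts stood at 32.3 and 32.2, and desert regions called in all 4 libraries at 59.5 and 62.0. Above percentile 75 of the list were 117 members in replicate 1 (7.11%) and 122 in replicate 2 (7.41%), with 86 in both, against 4.06% and 3.35% of LISC-only regions outside deserts. At or below percentile 25 were 568 members in replicate 1 (34.5%) and 492 in replicate 2 (29.9%), with 332 in both, against 38.4% and 37.6% of LISC-only regions outside deserts. These values come from the lists that define the set and are a description.

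The summits of the 2 LISC libraries lay close together, which the rule in part requires. Peaks of both lists had to overlap to form a member, and summit distances were not measured for other sets. The summits differed by a median of 29 bp, and by at most 50 bp in 1077 of 1646 regions (65.4%). A single peak per library made up 1592 of the regions, and the median width was 527 bp. Across the 1646 regions, Spearman's rho between the −log10 q values of both libraries was 0.75, a description over regions of which many share a desert.

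**Figure D3:**
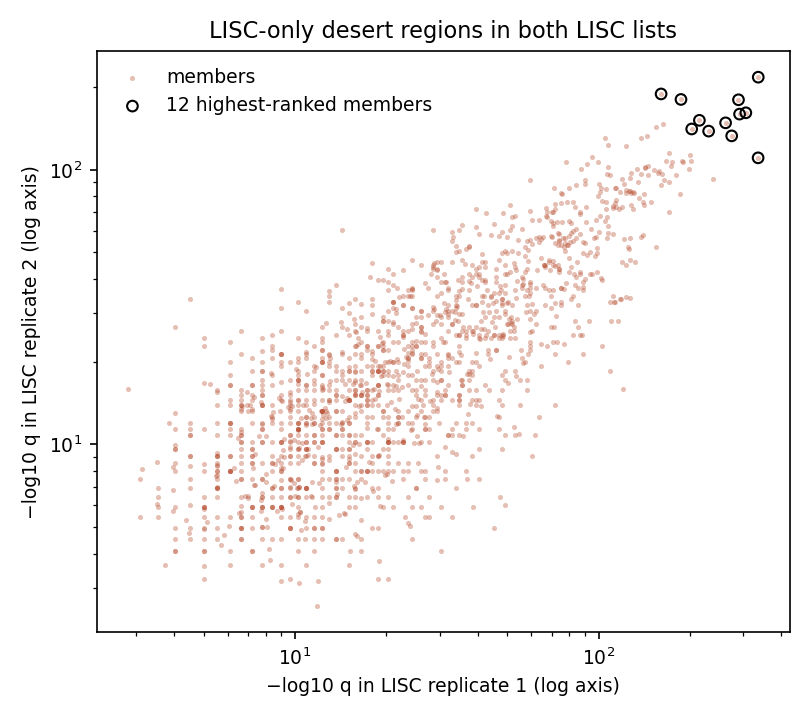
−log10 q of each of the 1646 LISC-only desert regions in LISC replicate 1 (x axis) and replicate 2 (y axis), both on log axes, with the 12 highest-ranked regions circled. The medians are 20.3 and 17.2, and the circled regions lie above 160 on the x axis and above 110 on the y axis.

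The strongest member by mean rank lay 152 kb from Rprm, a gene for a mediator of cell cycle arrest, on chromosome 2 (54236824 to 54237894). Its −log10 q was 336 in LISC replicate 1 and 217 in LISC replicate 2, with the summit at the same base in both, and it ranked at percentiles 94.4 and 96.0. The strongest peaks of either list therefore lay elsewhere.

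The sixth in rank (chromosome 1, 56288533 to 56290068) lay between Plcl1 and Hsfy2, with a −log10 q of 275 in LISC replicate 1 and 133 in LISC replicate 2. The seventh lay 502 kb from Dusp26, a dual-specificity phosphatase gene, on chromosome 8 (30587213 to 30588199). Its −log10 q was 336 in LISC replicate 1 but 111 in LISC replicate 2, the widest difference in −log10 q among the 12. By percentile within each list it stood at 94.4 and 85.9. The region near Npy, described below, differed more by that measure, at 84.0 and 94.4. The eighth (chromosome 18, 88673378 to 88674544), 191 kb from the cytokine signalling inhibitor gene Socs6, had 187 and 180.

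The ninth (chromosome 14, 84283116 to 84284467) was in the gap between Olfm4, a small-intestinal stem cell marker, and the protocadherin gene Pcdh17, 160 kb from Pcdh17 and 4261 kb from Olfm4, with a −log10 q of 215 and 151. The eleventh (chromosome 6, 49965704 to 49967127), 137 kb from the neuropeptide Y gene Npy, was higher in LISC replicate 2 (189) than in LISC replicate 1 (161). Of the remaining members of the 12, 5 were nearest to Pik3c3, Tecrl, Kif2b, Wscd1 and Fam83b, at 125 to 551 kb.

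The regions were gathered in a minority of deserts. Of 1393 gaps between protein-coding genes wide enough to hold a desert, 497 held at least 1 member, and 1 further member lay before the first gene of its chromosome. In 120 gaps there were 5 or more members, 910 in all (55.3% of members), and in 25 gaps 10 or more. SISC-only desert regions lay in 330 gaps, of which 34 held 5 or more and 0 held 10 or more, with fewer regions to place. Close spacing was not particular to members. Another region of the same set lay within 10 kb for 31.4% of members and 24.5% of SISC-only desert regions. For desert regions called in all 4 libraries it was 50.8%. Of the 120 gaps, 60 held no SISC-only desert region and 3 held more SISC-only than LISC-only ones. Without LISC replicate 1, which loosens the rule, the gaps with 5 or more numbered 187, and with each list held to its 41721 strongest peaks 23.

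Neighbouring group-only regions tended to be of the same group. The nearest other group-only region was LISC-only for 1395 of 1646 members (84.8%, exact 95% interval 82.9 to 86.5). The LISC-only share among all group-only desert regions was 69.0%. Neighbours could also lie outside deserts, so that base is not quite alike. Over chromosomes 1 to 19 as a whole, 11919 regions were LISC-only and 9337 SISC-only. The median distance from a member to the next LISC-only region was 27.0 kb and to the next SISC-only region 256 kb. Regions of 1 desert are not independent of each other. A region called in all 4 libraries lay at a median of 49.9 kb from a member and of 21.6 kb from a SISC-only desert region.

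The gap between Plcl1, a phospholipase C-like gene, and Hsfy2, a gene of the heat shock factor family, held the most members. This stretch of chromosome 1 (55754286 to 56636043) had 21 members, 1 SISC-only desert region and 8 desert regions called in all 4 libraries. Member values ran from 5.54 to 275 in −log10 q in LISC replicate 1 and from 9.37 to 133 in LISC replicate 2. Several were near or above 100 in LISC replicate 1, such as the one at 55896535 to 55897875 with 113 and 85.6 and the one at 56019213 to 56020488 with 114 and 75.6. The first 7 members lay between 55887276 and 55904867, and the lncRNA gene Gm32949 held 5 of them in its body.

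Next to Sox2, a transcription factor of foregut and stomach, the gap up to the flippase gene Atp11b (chromosome 3, 34652462 to 35754043) held 16 members and 0 SISC-only regions over its whole length. Regions called in all 4 libraries numbered 3 in its desert and 14 over the whole gap. Member values were lower here, with a −log10 q of at most 82.6 in LISC replicate 1 and 76.3 in LISC replicate 2. Without LISC replicate 1, which loosens the rule, this gap held 26 members. The gap between Cd83 and Jarid2, a partner gene of the Polycomb complex (chromosome 13, 43803134 to 44730773), held 15 members beside 8 SISC-only and 24 shared desert regions, so the groups were mixed there. Zeb2, a repressor of epithelial genes, and the activin receptor gene Acvr2a bounded 15 members, 8 SISC-only and 17 shared desert regions in 3.70 Mb.

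The gap between Erbb4 and Ikzf2, the gene of the Ikaros-family factor Helios, was the most dense of the gaps with 5 or more members (chromosome 1, 69108577 to 69531206). It held 13 members in 0.223 Mb of desert, or 58.4 per Mb, against 2.42 per Mb over all deserts. Along its whole length it had 24 LISC-only, 0 SISC-only and 0 regions called in all 4 libraries. Its strongest member (69319264 to 69320257) had a −log10 q of 127 in LISC replicate 1 and 84.0 in LISC replicate 2. The next in replicate 1 (69394646 to 69395105) had 121 in replicate 1 and 15.9 in replicate 2. With a desert bound of 50 kb this gap held 23 members, and with 200 kb 3.

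Of the other gaps, that between Camk1g and the semaphorin receptor gene Plxna2 held 14 members and 0 SISC-only regions. Shared regions there numbered 9 in the desert and 16 over the whole gap. The gap between Nmbr and Cited2, a transcriptional co-regulator, held 14 members, 9 SISC-only and 22 shared desert regions. That between Csnk1g3 and Zfp608 held 13, 4 and 8. Between Arrdc4 and Nr2f2, an orphan nuclear receptor gene, there were 12 members and 0 SISC-only desert regions, with 2 SISC-only regions nearer to the genes. Shared regions numbered 2 in this desert and 15 over the whole gap. In this gap the −log10 q reached 113 in LISC replicate 1 and 131 in LISC replicate 2. The 10 gaps with the most members, of which 9 are described, together held 150, or 9.11% of all. With each list held to its 41721 strongest peaks, Plcl1 to Hsfy2 held 13 and the other 8 gaps described held 3 to 8.

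**Figure D4:**
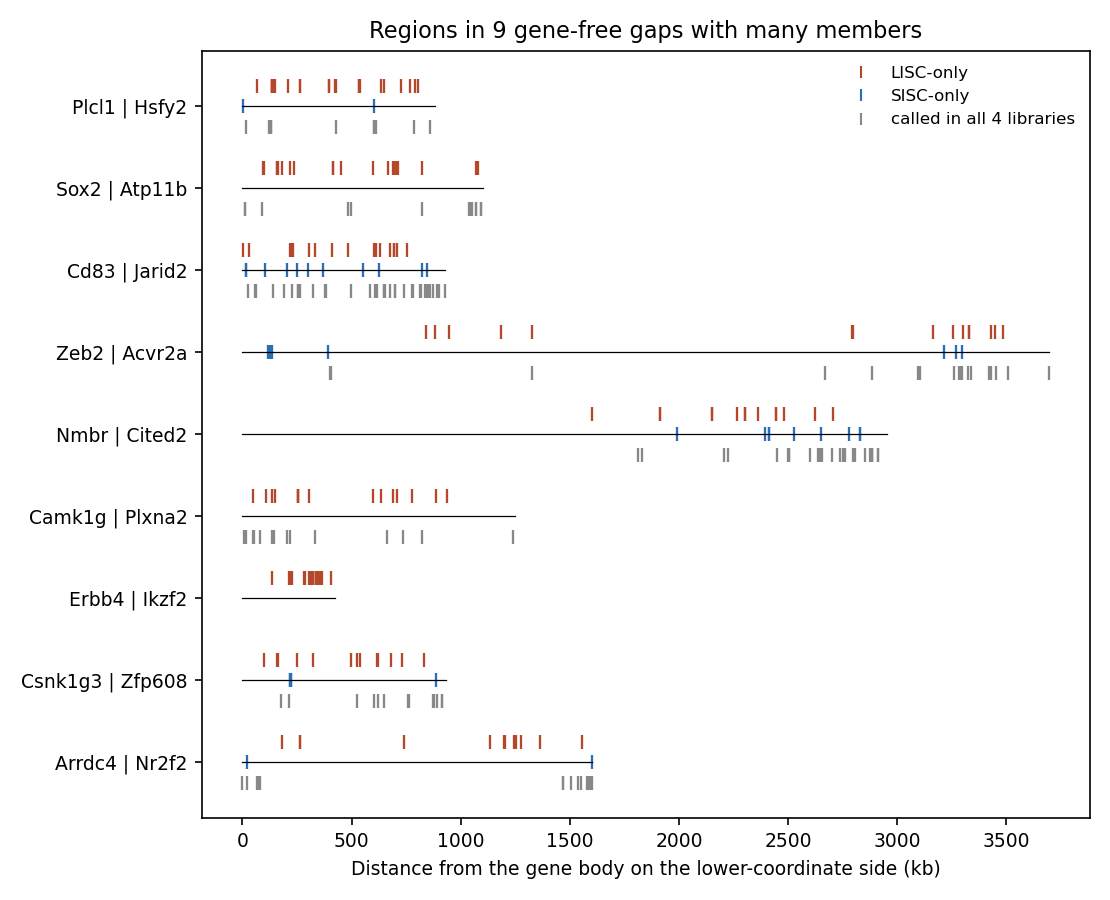
Positions of LISC-only (red), SISC-only (blue) and 4-library regions (grey) in 9 of the 10 gaps with the most members, each line being a gap drawn to scale from the gene on its lower-coordinate side (x axis, kb). The gap from Erbb4 to Ikzf2 shows 24 LISC-only regions and none of the other kinds, and that from Cd83 to Jarid2 all 3 kinds together.

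Lists of genes were then set beside the regions by nearest gene. Over all 20665 protein-coding genes of these chromosomes, 651 (3.15%) were nearest to a member. Of the 2374 genes that border a gap wide enough, 650 were (27.4%), which is the fairer base for genes beside deserts. The lists were chosen with earlier results of these data known, and their counts carry no test.

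Of the 62 developmental transcription factor genes, 55 bordered a wide gap, and 27 of these (49.1%) were nearest to a member, with 94 members in all against 39 SISC-only regions. Over all genes there were 1646 members against 738 SISC-only desert regions. SISC-only desert regions were nearest to 16 of its 62 genes, against 397 of all 20665 genes. That base is not alike, since most of all genes do not border a wide gap. Sox2 had 9 members and Nr2f2 8, with 0 SISC-only desert regions at each. Neuronal adhesion and synaptic genes bordered wide gaps at 50 of 54 genes, of which 15 (30.0%) were nearest to a member, with 41 members against 16 SISC-only regions. They were led by the ephrin receptor gene Epha7 with 7 members and by Flrt2 and Pcdh18 with 6 each.

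Of the 22 large-intestinal markers, 5 bordered a wide gap and 3 were nearest to members. Ikzf2 had 11 members, Car2, a carbonic anhydrase gene, 2, and Foxd2, a forkhead gene, 1, with 0 SISC-only desert regions among them. The regions near Car2 were strong, at a −log10 q of 75.4 and 123 in LISC replicate 1 and 75.7 and 122 in LISC replicate 2. The small-intestinal markers also lay near members. All 6 of 22 that bordered a wide gap were nearest to one, 22 in all against 4 SISC-only desert regions. Olfm4 had 7 members at 823 to 1171 kb, the bile acid transporter gene Slc10a2 6 at 353 to 907 kb, and Apob 5 at 179 to 239 kb, so nearest position did not part the lists.

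Of 25 stem cell and Wnt target genes, 9 bordered a wide gap and 5 of these were nearest to a member, with 20 members against 6 SISC-only desert regions. Myc, a growth regulator driven by Wnt signals, had 9 members, 3 SISC-only and 29 shared desert regions. Lrig1, an inhibitor of EGF receptors, had 5 members and 0 SISC-only desert regions, and the crypt transcription factor gene Sox9 had 4 and 2. Of 22 intestinal identity factors, 11 bordered a wide gap and 5 of these were nearest to a member, with 14 members against 18 SISC-only desert regions. Klf4, a differentiation factor, had 5 members and 1 SISC-only region, with a best member at a −log10 q of 154 in LISC replicate 1 and 143 in LISC replicate 2. Klf5, a factor of proliferating crypt cells, had 3 members and 6 SISC-only regions, and Foxa2 3 and 0.

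Of 31 BMP, Notch and TGF-beta genes, 14 bordered a wide gap and 8 of these were nearest to a member, with 24 members against 12 SISC-only desert regions. Acvr2a had 10 members and 3 SISC-only regions, Bmp2 had 4 and 2, and the Notch target Hes1 had 2 and 2. Of 14 goblet and deep crypt secretory genes, 2 bordered a wide gap and 1, Kit, was nearest to members, 3 in all against 0 SISC-only desert regions. The 22 Hox genes and 18 enteroendocrine and tuft cell genes had 0, and 0 and 2 of them border a wide gap. Of 16 immune genes, Ptprc had 1 member, and of 17 stromal, endothelial, muscle and glial genes Pdgfra had 3 and Cdh5 had 1, with 0 SISC-only desert regions at each of these genes. The bases were 1 immune gene and 5 genes of the other list that border a wide gap.

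Long non-coding RNA genes run through many deserts, and the rule did not use them. The midpoint of 310 members (18.8%, exact 95% interval 17.0 to 20.8) lay in the body of an lncRNA gene, against 159 SISC-only desert regions (21.5%, 18.6 to 24.7) and 713 desert regions called in all 4 libraries (27.5%, 25.8 to 29.3). Within 1 kb of an lncRNA gene end lay 60 members (3.65%, 2.79 to 4.67), 36 SISC-only (4.88%, 3.44 to 6.69) and 184 shared desert regions (7.099%, 6.14 to 8.16). The members and the SISC-only desert regions have overlapping intervals on both counts. When genes of every type bounded a desert, 294 LISC-only and 67 SISC-only regions remained over 100 kb from any of them.

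Members were found on all 19 chromosomes. Counted per Mb of desert they were most dense on chromosome 13, with 134 regions or 4.00 per Mb, and least on chromosome 19, with 11 or 1.06 per Mb. They outnumbered SISC-only desert regions on 17 of the 19 chromosomes. The widest ratio was on chromosome 1, with 176 members and 39 SISC-only desert regions, where the gaps at Plcl1, Camk1g and Ikzf2 lie. The exceptions were chromosome 16, with 52 members and 58 SISC-only regions, and chromosome 19, with 11 and 14.

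**Figure D5:**
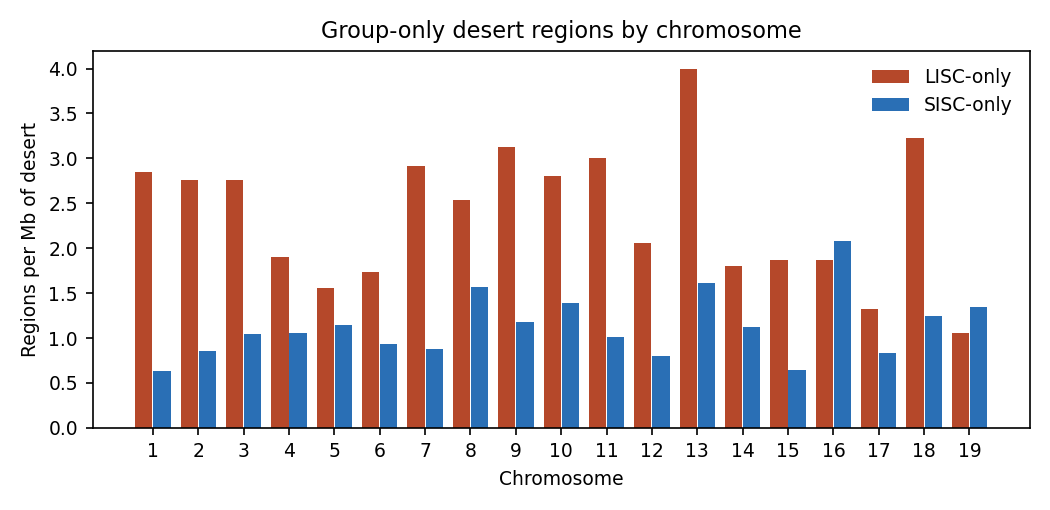
LISC-only and SISC-only regions per Mb of desert (y axis) on each autosome (x axis), where desert is sequence over 100 kb from protein-coding genes. LISC-only bars are higher on 17 of 19 chromosomes, up to 4.00 per Mb on chromosome 13, and lower on chromosomes 16 and 19.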

How the data were processed

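ATAC-seq peak lists of 2 LISC and 2 SISC libraries were used. The submitters' processing notes name mm10, MACS2 2.2.7.1, bedtools, Bowtie2 2.3.4.1, cutadapt 3.4 and Picard. How reads were shifted and duplicates handled, and the calling threshold, is not given in the sources used here. Each list was called on 1 library, per the peak names. The authors deposited for each peak a fold enrichment (a ratio) over the local background, a −log10 p, a −log10 q and a score that is a multiple of the −log10 q. These depend on their own library's depth, which is unknown, and served to rank and describe peaks within a list. Peak positions were converted to 1-based coordinates.

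Peaks were merged at 1 bp overlap, giving 119965 regions by an own merge and by bedtools 2.31.1. Genes came from a RefSeq table of GRCm38.p6, which is mm10, and 20665 protein-coding autosomal genes were used. A gap is the stretch between neighbouring gene bodies. The desert share per library was compared by a two-sided exact permutation test, and all else is description, with exact (Clopper-Pearson) 95% intervals. Members, gene lists and rules were chosen with earlier results of these data known. Named are the 12 members of highest mean percentile, the 10 gaps with most members, and up to 3 genes per list. Of these, 1 region, 1 gap and 1 list gene are not reported here. Sequences, densest stretches and the strand count were chosen after values were seen. A genome was not used here, so sequence is shown from RefSeq promoter windows alone. Steps were tested on simulated data. The tools were scipy 1.17.1, pandas 2.3.3, numpy 2.4.6, matplotlib 3.10.9 and Python 3.11.15.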

Additional observations from a re-analysis of the deposited data

How the results depend on the processing

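All alternatives were planned. Members outnumbered SISC-only desert regions, and LISC-only regions lay in deserts more often than SISC-only ones, under all 12 alternatives. The 1646 members became 655 among the 41721 strongest peaks of each list, 2471 at over 50 kb, 911 at over 200 kb and 294 with genes of every type; fewer peaks or a wider or narrower desert entered by construction. In the same order the desert share of LISC-only regions (13.8%) was 12.3%, 20.7%, 7.64% and 2.47%, and it was 13.2% when peaks had to cover 50% of a region, 12.8% with summit windows and 12.1% to 13.3% when 1 library was left out. Gaps with 5 or more members (120) numbered 23 among the strongest peaks, 61 at over 200 kb, 11 with genes of every type, and 133 to 187 with 1 library left out. Leaving out a library loosens the rule, so the last counts could hardly fall below 120. The median percentile of members (36.2, mean of both LISC lists) was 41.0 at 50% cover, 38.4 at over 200 kb, 39.4 with genes of every type, and 27.9 to 36.2 with 1 library left out. The desert share per library was higher in LISC in each alternative run, by 0.317 to 1.45 percentage points (exact p = 0.333 throughout); it was not run at 50% cover, which does not change a list. With libraries paired by replicate number as a block, the mean difference was 1.23 points and the exact sign-flip p 0.5, the smallest that 2 pairs allow. All 12 named regions stayed members in 10 of the alternatives, with 6 at over 200 kb and 3 with genes of every type. Neither leaving out 1 library nor a 50 kb bound could take such a region out of the set. The 12 also ranked well above the bounds on peak strength. In those settings their staying was thus close to fixed in advance. Of 120 named gap counts, 96 stayed within 1.5 times. Many of these come from leaving out 1 library or from the 50 kb bound, which could hardly lower such a count. With genes of every type, Plcl1 to Hsfy2 held 11 members and the other gaps described held 0 to 3. Unknown depth limits every absence from a SISC list.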

Other observations

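Outside the named gaps, dense stretches of LISC-only desert regions stood at other loci, chosen after their values were seen. The stretch of 100 kb or less with the most members after those by Ikzf2 (9) and Plcl1 (8) lay between Ets1 and Kirrel3 on chromosome 9, with 8 members in 67.1 kb. Ets1 encodes an Ets-family transcription factor. Between Trib2 and Lpin1 on chromosome 12, 7 members lay in 82.0 kb, and between Pik3c3 and Rit2 on chromosome 18, 7 lay in 57.4 kb. Klf6, a Krüppel-like factor gene, and Tenm4, a teneurin gene, were each nearest to 10 members and to 0 SISC-only desert regions.

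Among lncRNA genes, 2610307P16Rik, Gm13481, Gm32949 and Gm35726 held 5 members each in their bodies. Gm32949 is the shortest of these at 28.5 kb, and the longest is 2610307P16Rik at 425 kb.

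The strand of the lncRNA starts was uneven. Of the 21 windows under members, 18 were on the plus strand and 3 on the minus strand, while of 13 windows under SISC-only desert regions 1 was on the plus strand and 12 on the minus strand. The 109 windows under desert regions called in all 4 libraries were 55 plus and 54 minus, and all 2017 desert windows were 1032 plus and 985 minus. This was seen after the windows had been listed, rests on few windows, and was not tested.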
